A study of Mus musculus with 24 samples.

Results

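The 10 genes described here encode the ubiquitin ligases of muscle atrophy (Fbxo32, Trim63, Fbxo30, Fbxo21, Trim54, Trim55 and Mul1) and the FOXO transcription factors Foxo1, Foxo3 and Foxo4. They were chosen by symbol, and all 10 were found among the 47643 genes of the count table. Their levels were measured in the plantaris, a fast hindlimb muscle, of wild-type C57BL/6 mice that breathed normal air (11 samples) or tobacco smoke for 16 weeks (13 samples). Both groups had the same genotype and strain, no age was given, and the series title places the comparison in a study of the aryl hydrocarbon receptor (AhR) in smoking-related muscle impairment. Each sample was 1 library made with a kit that reads the 3′ ends of polyadenylated RNA, so a transcript is counted near its end and values are not divided by gene length. Nothing in the labels says whether muscles of several mice were pooled, so p-values measure the spread between these samples.

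Muscle loses protein largely through the ubiquitin-proteasome system, in which a ligase attaches ubiquitin to a chosen substrate. Fbxo32 encodes atrogin-1, the F-box subunit of an SCF (Skp1-cullin-F-box) ligase, and Trim63 encodes MuRF1, a RING-finger ligase of the sarcomere. Both are the classical markers of atrophy and are induced together by fasting, denervation and glucocorticoids. FOXO proteins activate both genes when they are in the nucleus. Insulin and IGF signalling through the kinase AKT phosphorylates FOXO proteins and keeps them in the cytoplasm, so that their activity need not follow their mRNA.

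The promoter of Trim63 is shown because this gene had the largest log2 fold change of the 9 tested genes, and that of its relative Trim54 because it showed almost none. The sequences come from RefSeq (GRCm38.p6), whose promoter table held 7 of the 10 genes; Fbxo32, Trim55 and Foxo4 were not among them. Each run covers the 250 bases before the RefSeq start, 5′ to 3′ on the plus strand (chr4:134314870-134315119 and chr5:31116362-31116611). For Trim54 that start lies before the gene start given below, 31116712, which comes from another annotation (GENCODE). Capitals in Trim63 mark TGTTCT, the core of a glucocorticoid receptor element, followed directly by TGTTTAC, the reverse complement of the FOXO motif GTAAACA. Capitals in Trim54 mark AGAACA, the reverse complement of TGTTCT.
Trim63: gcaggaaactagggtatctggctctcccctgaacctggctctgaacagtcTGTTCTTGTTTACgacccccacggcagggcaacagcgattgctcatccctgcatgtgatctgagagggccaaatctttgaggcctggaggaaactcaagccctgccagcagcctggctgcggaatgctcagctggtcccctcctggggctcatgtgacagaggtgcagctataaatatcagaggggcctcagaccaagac
Trim54: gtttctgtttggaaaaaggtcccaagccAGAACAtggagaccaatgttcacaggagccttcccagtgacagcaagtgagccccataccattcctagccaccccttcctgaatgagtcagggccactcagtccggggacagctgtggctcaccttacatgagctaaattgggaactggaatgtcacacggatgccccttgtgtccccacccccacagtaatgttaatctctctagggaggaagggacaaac

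Motifs were searched on both strands of promoter windows of 300 bases, 250 before and 50 after the start. GTAAACA was found for 1 of the 7 available genes, Trim63. It was in 3.65% of 32851 promoters of the same length, which belong to 27025 genes, 1095 of them with the motif. TGTTCT was found for 2 of the 7, Trim63 and Trim54, and in 19.0% of all promoters (5750 genes). In Trim63 the TGTTCT match lay at bases -200 to -195 and the FOXO match at bases -194 to -188 from the start, so that they touched without overlap. The joined run TGTTCTTGTTTAC, which was read off this promoter, occurred in no other of the 32851. The complete palindrome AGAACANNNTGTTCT was in 0 of the 7 and in 3 promoters in all. GCGTG, the core of the element bound by AhR, was in 5 of the 7 (Foxo1, Foxo3, Mul1, Fbxo21 and Fbxo30) and in 32.4% of all promoters (9500 genes). CACGTG, the E-box, was in 1 of the 7 (Mul1) and in 7.15% of all promoters (2187 genes). These matches describe letters and not occupied sites.

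Total counts per library ranged from 2515697 to 4528845, and 3 counts, taken as the detection floor, corresponded to 0.662 to 1.19 CPM (counts scaled to a common library total). Fast fibre markers had a summed level of 156203 to 244306 CPM in air and 164531 to 210252 CPM in smoke. Slow fibre markers reached 408 to 802 CPM in air and 345 to 737 CPM in smoke. The 8 cardiac markers summed to 12.2 to 25.03 CPM in air and 10.2 to 20.4 CPM in smoke, with Nppb at 0 counts in all libraries. Over all genes, 195 of 10159 tested (1.92%) were called at an adjusted p under 0.05 by edgeR's quasi-likelihood test with Benjamini-Hochberg adjustment, 121 lower (1.19%) and 74 higher (0.728%) under smoke. Air replicate 11 was the library least like the rest of its group, with a mean correlation of 0.952 to the other air libraries against 0.964 to 0.972 for the others. It was also the highest air library for 5 of the 10 genes, namely Trim54, Mul1, Foxo1, Foxo3 and Fbxo21.

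Of the 10 genes, 9 passed the filter on low counts and were tested, and Trim55 did not pass it. By edgeR 0 of the 9 were called, against 1.92% of all tested genes, while 2 (Trim63 and Foxo1) had an unadjusted p under 0.05, both lower, against 15.5% of all (7.95% lower). At an adjusted p under 0.10 edgeR called 1, Trim63, against 4.07% of all (2.4% lower). DESeq2 called 1 gene, Trim63 as lower, against 3.31% of the 9765 genes to which it gave an adjusted p (2.07% lower). Limma voom called 0, against 175 of the 10159 tested genes (59 higher, 116 lower). All 9 fold changes were negative, against 48.4% of all tested genes, and their median log2 fold change was -0.10 beside 0.0066 over all tested genes. Members share regulators and were not chosen blind to these data, so the count is a description.

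**Figure D1:**
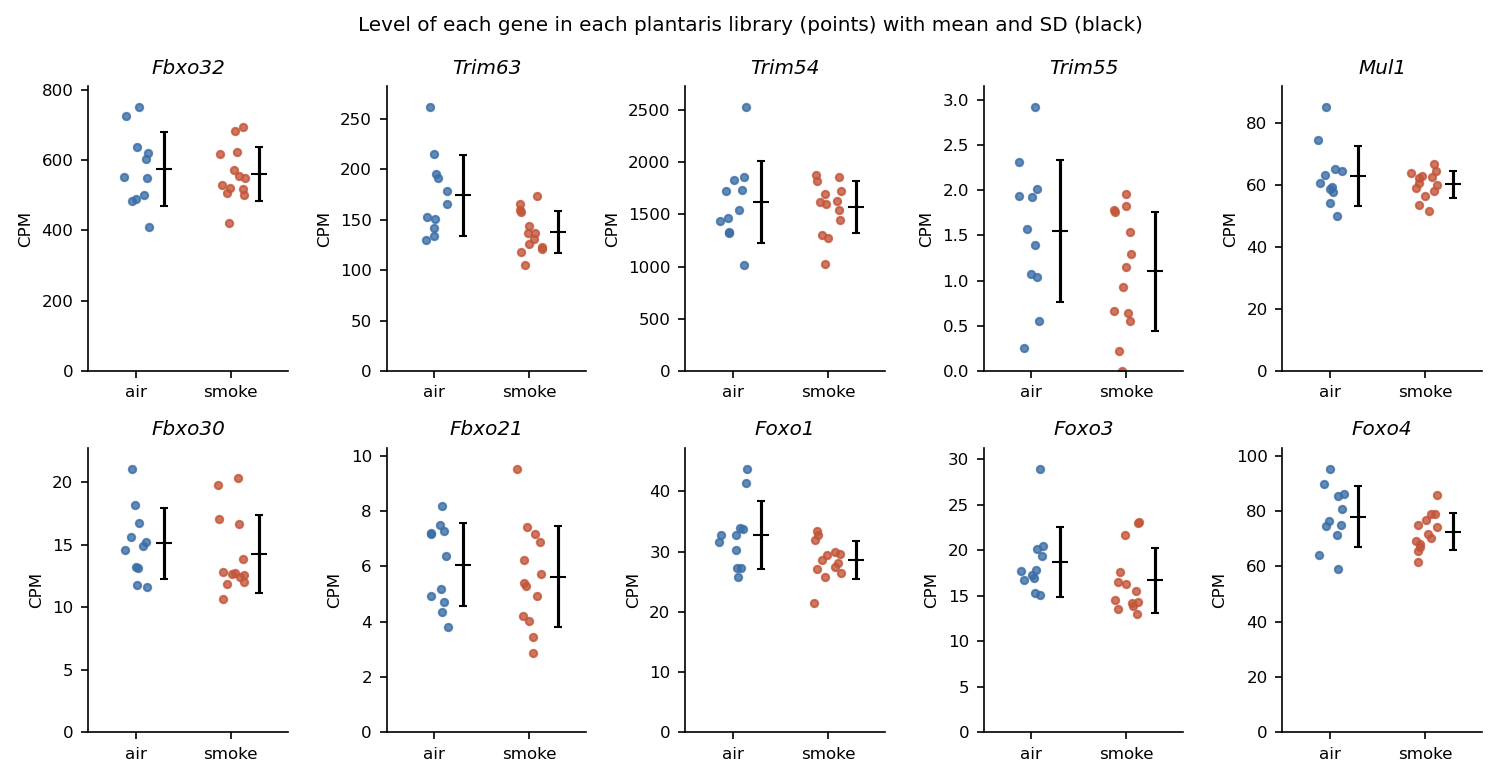
Level of each of the 10 genes in each library in CPM (linear axes from 0; blue, 11 air libraries; red, 13 smoke libraries; black, mean and SD). Trim63 lies at 130 to 262 CPM in air and 105 to 174 CPM in smoke, and the groups overlap for every gene.

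Trim63 (MuRF1; chromosome 4, 134315120 to 134329629, plus strand, GRCm38) had the log2 fold change of the largest size among the 9. It ranged from 130 CPM through a median of 166 to 262 CPM in air, and from 105 through 137 to 174 CPM in smoke. The groups overlapped, but 5 air libraries lay above the highest smoke library and 5 smoke libraries lay below the lowest air library. All 13 smoke libraries were below the air mean, which was so for 1.81% of tested genes, and 11 were below the air median. Smoke replicate 7, at 174.08 CPM, lay only just below the air mean of 174.27 CPM, which includes air replicate 5 at 262 CPM. The means were 174 ± 39.9 CPM in air and 138 ± 20.8 CPM in smoke (SD, n = 11 and 13), a ratio of 0.794. The log2 fold change was -0.33 (SE 0.095, adjusted p = 0.0568 by edgeR), rank 227 by p-value among 10159 genes, and its 95% interval ran from -0.52 to -0.15.

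This value sat at the edge of the threshold. The adjusted p was 0.0417 by DESeq2 and 0.0200 by edgeR without a filter on low counts, and over 11 alternatives (1 of them, the replicate block, on 22 of the 24 libraries) it ranged from 0.0200 to 0.385. Leaving out any 1 of 6 libraries brought it under 0.05, namely air replicate 2 (0.0357), air replicate 6 (0.0303), air replicate 11 (0.0399), smoke replicate 7 (0.0363), smoke replicate 8 (0.0486) or smoke replicate 11 (0.0486). Without air replicate 5, which had the highest level at 262 CPM, the log2 fold change was -0.26 (edgeR adjusted p = 0.123). Other features of the samples moved with the groups. An index of clock genes averaged -1.18 ± 0.791 (SD) in air and 0.994 ± 1.18 (SD) in smoke. It had r 0.74 with the group and holds genes called between the groups. A fit with it, here or below, therefore cannot fully separate index and group. Within groups Trim63 had r -0.17 with the index, in air and in smoke. With the index as a covariate the log2 fold change of Trim63 was -0.25 (edgeR adjusted p = 0.385). The 5 red blood cell markers, 3 of them lower under smoke (1.19% of all tested genes), summed to 486 to 1444 CPM in air and 369 to 883 CPM in smoke, and with their score as a covariate it was -0.32 (adjusted p = 0.227). The share of counts in the most abundant gene, Gm42418, was 12.7 ± 1.85% (SD) in air and 14.3 ± 2.18% (SD) in smoke, and with it as a covariate the value was -0.28 (adjusted p = 0.154).

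Fbxo32 (atrogin-1; chromosome 15, 58175879 to 58214932, minus strand) was nearly level between groups. It ranged from 410 CPM through a median of 552 to 751 CPM in air and from 420 through 548 to 694 CPM in smoke. The smoke range lay inside the air range, with 2 air libraries above it and 1 below. The means were 574 ± 105 CPM (SD, n = 11) and 560 ± 76.8 CPM (SD, n = 13), and the log2 fold change was -0.036 (SE 0.082, adjusted p = 0.891 by edgeR). Its 95% interval, from -0.20 to 0.13, leaves out a change as large as that of Trim63. The sign turned without air replicate 5 (0.0073) or air replicate 8 (0.0015), and with the clock index (0.013). With 1316 to 3129 counts per library, counting error was small beside the spread between libraries: the coefficient of variation in air was 18.3%, of which counting alone would give 2.22%.

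Because Trim63 and Fbxo32 are usually induced together, their ratio was compared within each library, where library scaling cancels. The log2 ratio of Trim63 to Fbxo32 was -1.73 ± 0.15 in air and -2.02 ± 0.25 in smoke (SD, n = 11 and 13). It ran from -1.92 to -1.52 in air and from -2.56 to -1.67 in smoke, and 11 of 13 smoke libraries were below the air mean. The difference of -0.29 (SE 0.083) passed the two-sided permutation test (p = 0.00218, Benjamini-Hochberg adjusted over 4 ratios p = 0.00872). Trim63 stood lower relative to Fbxo32 under smoke in this test. It did so in all 24 fits that left out 1 library (differences from -0.32 to -0.24, adjusted permutation p from 0.0026 to 0.0226). No covariate was fitted for the ratio. The log2 ratio of Trim63 to Trim54 differed by -0.29 (SE 0.17, permutation p = 0.0953, adjusted p = 0.191). Of the 24 fits that left out 1 library, 1 passed, that without air replicate 11 (-0.37, adjusted permutation p = 0.0479). Without air replicate 1 the difference was -0.19 (adjusted permutation p = 0.413). The ratio to Trim55 differed by 0.042 (SE 0.27, permutation p = 0.880, adjusted p = 0.880), a comparison that rests on the very low counts of Trim55. Over its 3 alternatives other than leaving out a library, the difference ranged from 0.078 to 0.23.

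**Figure D2:**
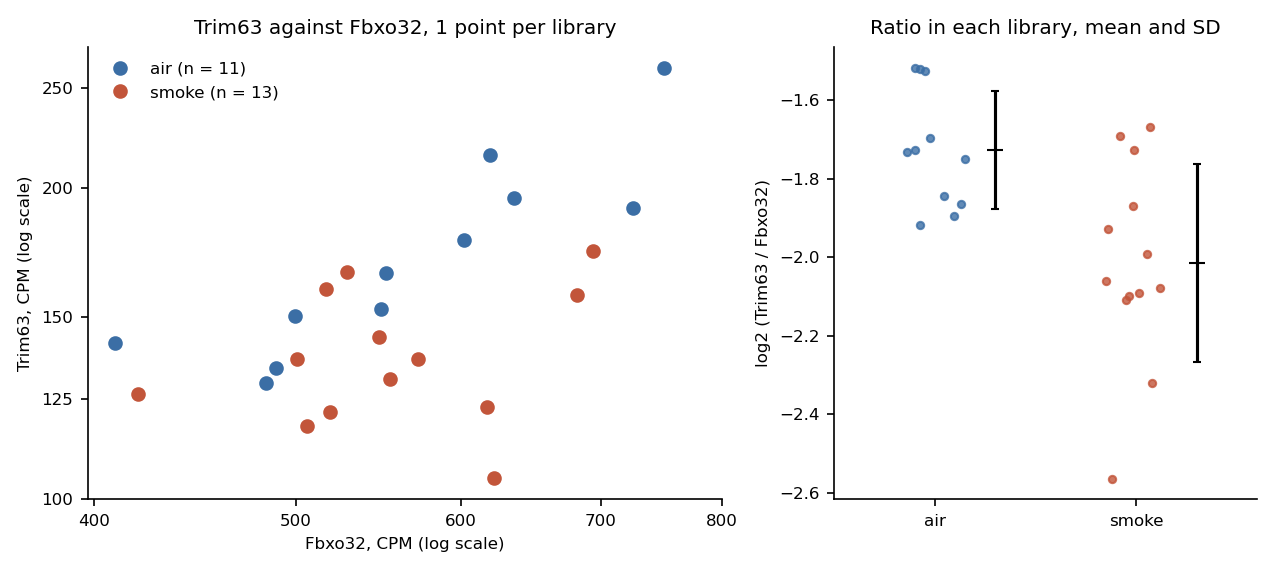
Left, Trim63 against Fbxo32 in CPM on log axes, 1 point per library (blue, air; red, smoke). Right, log2 ratio of the 2 genes in each library with mean and SD; air lies between -1.92 and -1.52 and smoke reaches down to -2.56.

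The correlation of the 2 genes was then read within each group. In air, libraries high in Fbxo32 were high in Trim63, with Pearson's r 0.88 (n = 11, permutation p = 4e-04, adjusted over 12 relations p = 0.0048) and Spearman's rho 0.94 (permutation p = 6e-05, adjusted p = 0.00072). Without the 2 libraries farthest from the median of Fbxo32, r was 0.88. In smoke, r was 0.26 (n = 13, permutation p = 0.389, adjusted p = 0.758) and rho 0.23 (permutation p = 0.446, adjusted p = 0.844), and r was -0.075 without the 2 farthest libraries. The difference in r of 0.62, tested after the values were seen by permuting group labels over group-centred pairs, had an unadjusted p = 0.0333, and a difference between the groups is not established by it. Without air replicates 1, 2, 5, 6, 8 or 10 in turn the permutation p was 0.0535, 0.0554, 0.0741, 0.0575, 0.0559 and 0.0542. Smoke replicate 10 combined 622 CPM of Fbxo32 with 105 CPM of Trim63, the lowest ratio of all, and without it r in smoke was 0.48. Smoke replicate 7, highest in its group for both genes, brought r in smoke to 0.034 when left out.

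The other MuRF genes are close relatives of Trim63 that also bind the sarcomere and microtubules. Trim54 (MuRF3; chromosome 5, 31116712 to 31137630, plus strand) ranged from 1014 CPM through a median of 1547 to 2529 CPM in air and from 1023 through 1617 to 1878 CPM in smoke. The highest value was that of air replicate 11, and the other air libraries lay within the smoke range apart from air replicate 1, the lowest. Its log2 fold change was -0.042 (SE 0.10, adjusted p = 0.898 by edgeR), and 0.038 without air replicate 11. With the clock index as a covariate it was -0.39 (edgeR adjusted p = 0.0984, the lowest of the 11 alternatives, which reached 0.955).

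Trim55 (MuRF2; chromosome 3, 19644474 to 19692421, plus strand) was close to the detection limit. It had 108 counts over all 24 libraries and 0 to 11 in each, with medians of 1.57 CPM in air and 1.15 CPM in smoke. Its CPM did not pass a two-sided permutation test (difference -0.444 CPM, p = 0.143), nor did its log2 CPM (difference -0.36, permutation p = 0.188). The medians lay near the floor of 0.662 to 1.19 CPM, and what difference could be detected at this depth was not tested. The annotated transcript BC002189, which lies within an intron of Trim55 on the same strand, had 1604 counts, averaging 18.3 ± 3.20 CPM in air and 20.4 ± 3.79 CPM in smoke (SD, n = 11 and 13). Its log2 fold change was 0.15 (SE 0.10, adjusted p = 0.515 by edgeR). How reads of this region were divided between the 2 genes is not given in the sources used here, so the level of Trim55 is uncertain; BC002189 was looked at after the values of Trim55 were seen.

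The remaining ligases are less muscle-specific. Mul1, a ligase of the outer mitochondrial membrane that acts on mitofusin (chromosome 4, 138434671 to 138442265, plus strand), ranged from 50.01 CPM through 60.5 to 85.0 CPM in air and from 51.7 through 60.6 to 66.7 CPM in smoke. The medians were almost equal and the upper tail in air came from air replicates 5 and 11. Its log2 fold change was -0.065 (SE 0.069, adjusted p = 0.720 by edgeR), -0.018 without air replicate 11, -0.039 without air replicate 5, -0.098 without air replicate 9 and -0.15 with the clock index. Fbxo30, also called MUSA1, an F-box protein induced when BMP signalling is lost (chromosome 10, 11281330 to 11298052, plus strand), ranged from 11.6 through 14.9 to 21.1 CPM in air and from 10.6 through 12.7 to 20.4 CPM in smoke. Its log2 fold change was -0.090 (SE 0.12, adjusted p = 0.770 by edgeR), 0.093 with the clock index and -0.034 without air replicate 1. Fbxo21, also called SMART, an F-box protein described as a FOXO target in atrophy (chromosome 5, 117976730 to 118010201, plus strand), ranged from 3.82 through 6.37 to 8.18 CPM in air and from 2.88 through 5.42 to 9.54 CPM in smoke. Its log2 fold change was -0.10 (SE 0.17, adjusted p = 0.837 by edgeR). With 9 to 34 counts per library, counting alone would give a coefficient of variation of 21.6% in air and 22.7% in smoke, where 24.6% and 32.5% were observed. Its 95% interval from -0.44 to 0.23 would hold a change as large as that of Trim63. With the clock index the log2 fold change of Fbxo21 was -0.48, with the share of the most abundant gene -0.29 and with the blood score -0.23, none passing (adjusted p from 0.357 to 0.728 by edgeR), and it ranged from -0.19 to -0.039 when single libraries were left out.

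**Figure D3:**
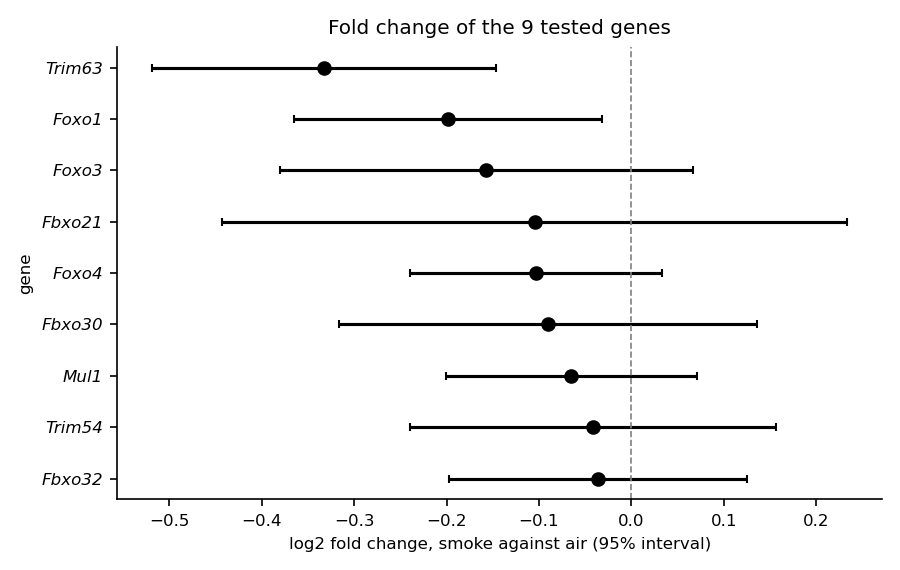
Log2 fold change, smoke against air, of the 9 tested genes (points) with the 95% interval (1.96 SE on either side, bars). All 9 points lie below 0, and the intervals of Trim63 (-0.52 to -0.15) and Foxo1 (-0.37 to -0.032) do not reach 0.

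The FOXO factors were each slightly lower in the mean under smoke, and none passed the test. Foxo1, the member most tied to fasting and to fuel choice in muscle (chromosome 3, 52268336 to 52353221, plus strand), ranged from 25.8 CPM through a median of 32.7 to 43.8 CPM in air and from 21.5 through 28.6 to 33.5 CPM in smoke. The groups overlapped, with 4 air libraries above the smoke range and 2 smoke libraries below the air range, and 12 of 13 smoke libraries were below the air mean. The means were 32.8 ± 5.62 CPM (SD, n = 11) and 28.6 ± 3.19 CPM (SD, n = 13), with log2 fold change -0.20 (SE 0.085, edgeR unadjusted p = 0.0253, adjusted p = 0.232). With the blood score as a covariate it was -0.058 (edgeR adjusted p = 0.875, range over 11 alternatives 0.194 to 0.875). Foxo1 is also expressed in vessels and blood cells: the 7 endothelial markers summed to 342 to 431 CPM in air and 325 to 401 CPM in smoke, and the 7 macrophage markers to 63.0 to 112 and 70.1 to 109 CPM. In whole muscle, fewer cells of a type and less RNA per cell cannot be told apart, and the part of these cells in the value was not tested.

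Foxo3, the factor shown to drive atrogin-1 and autophagy genes (chromosome 10, 42181841 to 42276755, minus strand), ranged from 15.1 through 17.8 to 29.0 CPM in air and from 12.97 through 15.6 to 23.1 CPM in smoke. Of the smoke libraries 6 were below the lowest air library, while smoke replicates 2, 7 and 13 were above 10 of the 11 air libraries. The log2 fold change was -0.16 (SE 0.11, adjusted p = 0.557 by edgeR). It was -0.34 with the clock index and -0.32 with the blood score, neither passing (adjusted p = 0.300 and 0.311 with edgeR), and -0.081 without air replicate 11 (adjusted p = 0.787). Foxo4 (chromosome X, 101254528 to 101260873, plus strand) ranged from 58.9 through 76.2 to 95.3 CPM in air and from 61.4 through 71.6 to 85.7 CPM in smoke, with log2 fold change -0.10 (SE 0.070, adjusted p = 0.513 by edgeR). The log2 ratio of Foxo1 to Foxo3 did not pass the test, at 0.79 ± 0.29 in air and 0.77 ± 0.28 in smoke (SD, n = 11 and 13), a difference of -0.018 (SE 0.12, permutation p = 0.874, adjusted p = 0.880).

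Relations between the FOXO factors and their targets were then read across libraries. Of the 12 relations computed within groups, 1 passed adjustment, that of Fbxo32 with Trim63 in air. Foxo1 with Trim63 had r 0.23 (rho 0.10) in air (permutation p = 0.505 and 0.774) and r -0.39 (rho -0.54) in smoke (permutation p = 0.188 and 0.0576, adjusted p = 0.758 and 0.346). Without the 2 libraries farthest from the median of Foxo1, r was 0.61 in air and -0.66 in smoke. Foxo1 with Fbxo32 had r 0.13 in air and -0.0035 in smoke, with rho -0.018 and -0.12 (permutation p from 0.703 to 0.992). Foxo3 with Fbxo32 had r -0.25 and 0.044, with rho -0.29 and 0.13, and Foxo3 with Trim63 had r -0.33 and -0.099, with rho -0.30 and -0.15 (permutation p from 0.322 to 0.890 for all 8 values). Foxo1 with Foxo3 had r 0.30 in air and 0.33 in smoke, with rho -0.14 and 0.40 (permutation p from 0.183 to 0.697), and r in air became -0.31 without the 2 farthest libraries.

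The genes most like these in pattern were the 5 of 10159 tested with the highest Pearson r of log2 CPM, group means removed. It was taken over the 24 libraries, which share depth and tissue composition. These genes were picked from so many candidates, without a p-value, that they are a description only. Those of Fbxo32 were Uqcrq (r 0.74), Dmac1 (0.71), Mib2 (0.66), Psmd2 (0.65) and Ndufa8 (0.65). Uqcrq was lower under smoke (log2 fold change -0.22, edgeR adjusted p = 0.00635). Uqcrq and Ndufa8 encode subunits of respiratory complexes III and I, Dmac1 an assembly factor of complex I, and Psmd2 a subunit of the proteasome cap. The first 4 of Trim63 were Slc43a3 (r 0.79), Insr (0.75), Fut8 (0.73) and Utp14a (0.72). Insr, the insulin receptor, is itself on the list of FOXO regulators, averaging 32.7 ± 3.60 CPM in air and 34.1 ± 4.81 CPM in smoke (SD, n = 11 and 13), with log2 fold change 0.062 (adjusted p = 0.769 by edgeR). Those of Foxo1 were Rgs10 (r 0.73), Csf1r (0.72), Nenf (0.68), Arhgap15 (0.67) and Crip1 (0.66), of which Csf1r encodes a receptor of macrophages. Those of Foxo3 were Mrtfb (r 0.74), Ehd1 (0.72), Lmna (0.70), Polr1c (0.70) and Blmh (0.69), with Lmna, the gene of lamin A/C, lower under smoke (log2 fold change -0.27, edgeR adjusted p = 0.0383).

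Genes around the ligases were then read from 6 lists. Of 31 tested genes among other ubiquitin ligases and ubiquitin-system genes studied in wasting, 1 fell and 1 rose, against 1.19% lower and 0.728% higher of all tested genes, and 7 had an unadjusted p under 0.05, against 15.5% of all. Asb2, the muscle subunit of a cullin ligase that degrades filamin, fell from 1600 ± 203 to 1260 ± 153 CPM (SD, n = 11 and 13), with log2 fold change -0.34 (SE 0.066, adjusted p = 0.00335 by edgeR). Air libraries lay at 1355 to 2033 CPM and smoke libraries at 978 to 1603 CPM, with 12 of 13 smoke libraries below the air mean, and the gene overlaps the antisense annotation Gm15523. Ube2d1, an E2 conjugating enzyme that serves MuRF1 in vitro, rose from 135 ± 17.1 to 163 ± 16.0 CPM (SD, n = 11 and 13), with log2 fold change 0.27 (SE 0.066, adjusted p = 0.0216 by edgeR), and 12 of 13 smoke libraries exceeded the air mean. The list's median was -0.060 beside 0.0066 over all genes. Of the 10 SCF subunits and regulators, which Fbxo32, Fbxo30 and Fbxo21 need, edgeR, DESeq2 and limma voom each called 0. Of all genes, edgeR called 1.92%, DESeq2 3.31% and limma voom 175 of 10159. Of the 10, 1 had an unadjusted p under 0.05, against 15.5% of all (Dcun1d1, log2 fold change 0.23, edgeR adjusted p = 0.161), and the median was -0.050. Nedd8, the modifier that activates cullins, had the next smallest p-value (log2 fold change -0.098, edgeR adjusted p = 0.411).

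**Figure D4:**
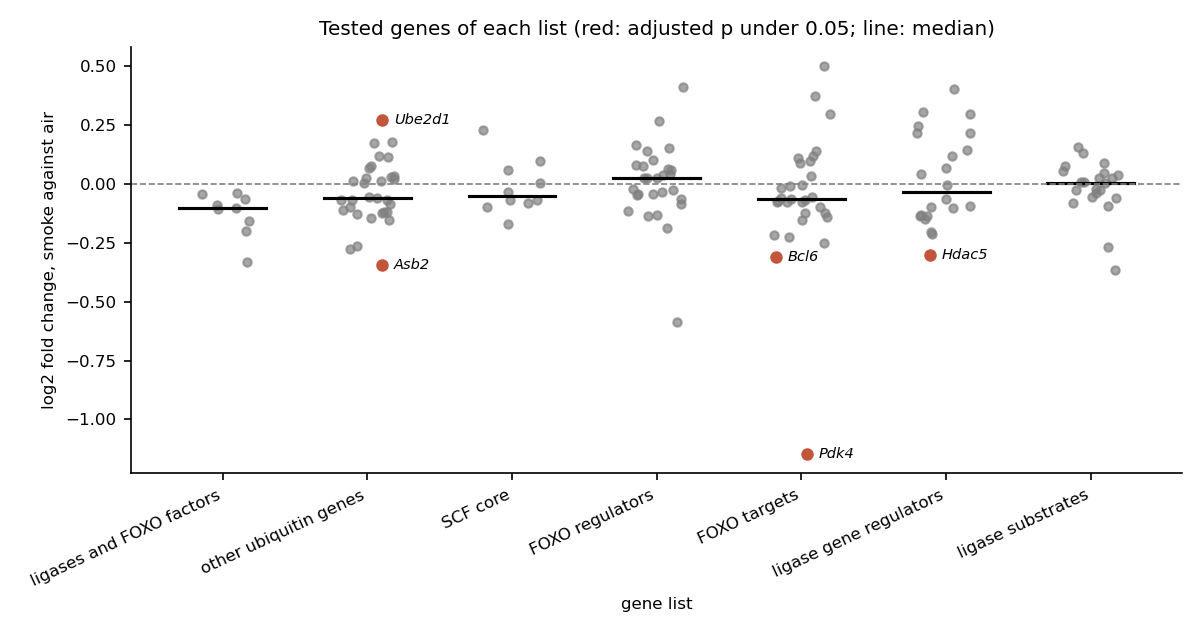
Log2 fold change, smoke against air, of every tested gene of the 10-gene set and of the 6 lists around it (grey points; red, adjusted p under 0.05; black line, median). The called genes are Ube2d1 above 0 and Asb2, Bcl6, Pdk4 and Hdac5 below it.

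Of 28 tested regulators of FOXO proteins (kinases, phosphatases, adaptors and cofactors), edgeR, DESeq2 and limma voom each called 0. Over all genes, edgeR called 1.92%, DESeq2 3.31% and limma voom 175 of 10159. Of the 28, 3 had an unadjusted p under 0.05 (15.5% of all tested genes), and the median log2 fold change was 0.026. The smallest p-values were those of Irs2, the insulin receptor substrate that FOXO factors themselves induce, and of Ywhag, a 14-3-3 protein of the family that holds FOXO in the cytoplasm. Irs2 spread widely in air, from 7.42 through a median of 15.5 to 41.2 CPM, against 8.34 through 11.5 to 25.8 CPM in smoke, with log2 fold change -0.59 (SE 0.23, adjusted p = 0.179 by edgeR). Ywhag had a log2 fold change of -0.12 (SE 0.049, adjusted p = 0.219 by edgeR).

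Of the 30 FOXO targets outside the ligases, all tested, 2 fell and 0 rose by edgeR (1.19% and 0.728% of all tested genes), with a median of -0.065. A negative fold change was found for 21, against 48.4% of all, and an unadjusted p under 0.05 for 7, against 15.5%. Pdk4, the kinase that shuts off pyruvate oxidation in fasting, fell from 5.32 ± 2.20 to 2.36 ± 1.29 CPM (SD, n = 11 and 13), with log2 fold change -1.14 (SE 0.27, adjusted p = 0.0165 by edgeR), below the air mean in 13 of 13 smoke libraries. Its counts were low, 5 to 36 per library in air and 1 to 14 in smoke, where smoke replicates 2, 6 and 10 had 1, 2 and 1, under the floor of 3. Bcl6, a transcriptional repressor whose gene overlaps the antisense annotation Gm37419, fell from 68.2 ± 14.2 to 55.0 ± 4.68 CPM (SD, n = 11 and 13), with log2 fold change -0.31 (SE 0.084, adjusted p = 0.0442 by edgeR), also in 13 of 13. DESeq2 called 3 of the list, all lower (2.07% of all genes were called lower by it), and limma voom 1, Pdk4, of 175 genes called in all. Of 22 tested factors that act on transcription of Trim63 or Fbxo32, 1 fell and 0 rose (1.19% and 0.728% of all), with 5 at an unadjusted p under 0.05 (15.5% of all) and a median of -0.034. It was Hdac5, a class II histone deacetylase that, with Hdac4, promotes myogenin and ligase expression after denervation. Hdac5 went from 62.6 ± 10.4 to 50.7 ± 4.64 CPM (SD, n = 11 and 13), with log2 fold change -0.30 (SE 0.076, adjusted p = 0.0261 by edgeR), below the air mean in 13 of 13.

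Of 22 tested substrates or partners of MuRF1, atrogin-1 and Mul1, edgeR called 0 (1.92% of all), with 4 at an unadjusted p under 0.05 (15.5% of all) and a median of 0.0052, while DESeq2 (3.31% of all genes called) and limma voom (175 genes called) each called 1, Myh2. Myh2, the myosin heavy chain of type IIA fibres, had 4002 ± 533 CPM in air and 3328 ± 546 CPM in smoke (SD, n = 11 and 13), with log2 fold change -0.27 (SE 0.077, adjusted p = 0.0627 by edgeR). Eif3f, a translation initiation factor that atrogin-1 degrades, had 236.1 ± 19.3 CPM (SD, n = 11) and 259 ± 15.5 CPM (SD, n = 13), with log2 fold change 0.13 (SE 0.050, adjusted p = 0.162 by edgeR), with 13 of 13 smoke libraries above the air mean. Of a list of clock genes that includes those of the index, 15 were tested, and 4 rose and 1 fell (0.728% and 1.19% of all tested genes). Nfil3 had the lowest p-value of all genes, with log2 fold change -1.31 (adjusted p = 1.31e-06 by edgeR), and Dbp rose by 1.18 on the log2 scale (edgeR adjusted p = 4.87e-05). Bhlhe40 rose by 0.44, Per3 by 0.45 and Nr1d2 by 0.28 on the same scale (adjusted p = 0.00105, 0.0172 and 0.0216 by edgeR).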

How the data were processed

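The authors deposited raw read counts for each Ensembl gene ID, with a column for every sample and no normalization. Per the submitters' processing notes, STAR, DESeq2 and the build mm9 were used, with no role or version given; the counting tool, annotation, read filter and use of strand are not given in the sources used here, so overlapping genes are uncertain. Reads may include PCR copies, and floors cover counting error only. Symbols came from GENCODE M21 (GRCm38), which held 47224 of 47643 IDs (99.1%); its coordinates, 1-based, were not used for counting, and promoter sequences came from RefSeq (GRCm38.p6).

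Counts were tested with edgeR 4.0.16 in R 4.3.3 (filterByExpr, minimum count 10; TMM; glmQLFit and glmQLFTest; 24 samples, no covariate), and p-values were adjusted over all 10159 tested genes. The procedure was tested on simulated data. CPM are on TMM-scaled libraries, and ratios and correlations use log2 CPM (prior count 2) with 100000 resamples. Groups and replicate numbers came from sample titles. The clock index was the mean z score of Dbp, Tef, Per3 and Nr1d2 minus that of Arntl, Npas2 and Nfil3. Alternatives used DESeq2 1.42.0, limma 3.58.1, other scalings and filters, 3 covariates, the replicate block and leaving out each library. Named were all members and, per list, the called genes or otherwise those with the 2 smallest p-values. Members and lists were chosen with earlier results of these data known. Motifs, BC002189, Foxo6 and the test of the difference in r were chosen after values were seen. Of the genes most alike to Trim63, 1 is not reported here.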

Additional observations from a re-analysis of the deposited data

How the results depend on the processing

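Against 195 genes called, DESeq2 called 323 (121 higher, 202 lower) and the blood score as a covariate left 56 (18 higher, 38 lower); the cause was not tested. The other alternatives gave 138 to 206 genes, and leaving out each library 141 to 254. Of the 10 genes, 0 were called in the reported fit and 1, Trim63, with DESeq2 (log2 fold change -0.33, adjusted p = 0.0417) and without a filter on low counts (-0.34, edgeR adjusted p = 0.0200), with 0 to 1 when a library was left out and -0.37 to -0.26 for Trim63. Of the 10 genes' 317 comparisons with an alternative, 304 kept direction and side of the threshold, 8 brought Trim63 past it and 5 turned the sign of an uncalled value. With the clock index Fbxo32 turned to 0.013 and Fbxo30 to 0.093. When libraries were left out, Fbxo32 ranged from -0.078 to 0.0073, Trim54 from -0.095 to 0.038, the log2 ratio of Foxo1 to Foxo3 differed by -0.063 to 0.028, that of Trim63 to Trim55 by -0.066 to 0.16 and that of Trim63 to Trim54 by -0.37 to -0.19.

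Replicate numbers occur in both groups, and nothing in the labels ties samples that share one. Over 11 same-numbered pairs, the mean r of their deviations within groups was -0.0059, against 0.0011 over 132 other pairs, so the numbers were not taken as pairs. With the replicate block, on 22 libraries, 138 genes were called and 0 of the set, and the ratio of Trim63 to Fbxo32 differed by -0.25 (sign-flip permutation over 11 pairs, adjusted p = 0.184, range over its 3 alternatives 0.00868 to 0.184). Without the 2 samples farthest from the median, r of Fbxo32 with Trim63 in smoke turned to -0.075 and r of Foxo1 with Foxo3 in air to -0.31. At an adjusted p under 0.10, 4 FOXO targets (1 higher, 3 lower) and 1 ligase substrate were called (4.07% of all tested genes, 2.4% lower), and DESeq2 called 1 substrate at 0.05. Depth limits Trim55 and Fbxo21 most.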

Other observations

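Foxo6, the remaining FOXO gene and not in the set, had 13.8 ± 3.51 CPM in air and 12.5 ± 2.57 CPM in smoke (SD, n = 11 and 13), with log2 fold change -0.14 (SE 0.13, adjusted p = 0.664 by edgeR). The coefficient of variation was larger in air than in smoke for 6 of the 10 genes, beside 54.3% of all tested genes. It was 22.9% in air and 15.03% in smoke for Trim63 and 15.4% and 7.21% for Mul1, while Fbxo30 (18.6% and 21.98%), Fbxo21 (24.6% and 32.5%), Trim55 (50.8% and 59.4%) and Foxo3 (20.5% and 21.5%) had the larger value in smoke. Myelinating Schwann cell markers also moved with the groups, with 3 of 6 higher under smoke (0.728% of all tested genes) and summed levels of 122 to 285 CPM in air and 183 to 858 CPM in smoke; their part in the values of the set was not tested.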
